A study of Xenopus laevis with 12 samples.

Results

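The ribosomal proteins and the factors that drive protein synthesis were followed across 4 groups of Xenopus laevis animal caps, explants of the pluripotent ectoderm of the blastula. They were taken by gene symbol: every gene on the array whose symbol, without its .L or .S ending, begins with rpl, rps, eif or eef and a number or the further letters of a ribosomal protein name (as in rplp0 and rpsa), without the rps6k kinases and eef2k. This gave 113 of the 6505 genes named on the array, each read on its brightest probe set (by the mean of the log2 signals). There were 3 arrays per group, one each from experiments I, II and III, and each RNA came from pooled caps. Caps of the group lhx1-AS/AcRA came from embryos that received 800 pg of lhx1-AS in the animal pole, an antisense oligonucleotide against the LIM homeobox gene lhx1, and were treated with 10 ng/ml activin and 0.0001 M retinoic acid, and caps of the group lhx1-AS were injected in the same way and left untreated. Caps of the group AcRA were not injected and received activin and retinoic acid, and caps of the group C were neither injected nor treated. Caps of all groups were dissected at stage 9 and, per the labels, harvested at stage 12.5, while the study's text gives a later stage of harvest. Since no group carried a control oligonucleotide, what the injection did through lhx1 cannot be told apart from what it did otherwise.

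The ribosome is built from a small subunit, which reads the mRNA, and a large subunit, which joins the amino acids. Initiation factors bring the initiator tRNA and the mRNA to the small subunit, elongation factors deliver further tRNAs and move the ribosome along, and kinases and binding proteins turn these steps down. The mRNAs of vertebrate ribosomal proteins and of many translation factors share a start that lets growth signals control their translation together, and the early frog embryo lives at first on ribosomes stored in the egg. The signals here measure mRNA and not ribosomes or protein synthesis, and in pooled caps fewer cells of a type cannot be told apart from less RNA per cell.

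The 113 genes held 43 large subunit proteins, 22 small subunit proteins, 33 initiation factors, 9 elongation factors and 6 regulators or modifiers that the symbol rule also takes (the eIF2 kinases eif2ak1 and eif2ak2, the eIF4E binding proteins eif4ebp2 and eif4enif1, and the methyltransferases eef1akmt1 and eef1aknmt). Classes were assigned from gene symbols, and eef1e1 stands among the elongation factors by its symbol alone. The probe sets of the 113 genes lay at the top of the array. Of the 113, 90 were among the brightest 10% and 42 among the brightest 1% of the 15503 probe sets tested, and 5 lay below the array's median. These are signals of probe sets, which do not rank mRNAs by amount. The median of the mean signals was 8918 for large subunit proteins, 9289 for small subunit proteins, 8448 for elongation factors, 2619 for initiation factors and 371 for the regulators. The small subunit protein rps29 had the highest mean signal, 29362, and the elongation factor eef1a1 had 20114. At the other end rpl3l, a relative of rpl3 that mammals use in muscle, had a mean signal of 4.98 and eef1a2, which mammals use in nerve and muscle in place of eef1a1, had 8.61. No detection calls were given, so whether such dim genes were above background is unknown.

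The bright genes were steady across all 12 arrays. The median SD over the 12 arrays was 0.29 on the log2 scale for the 113 genes, against 0.80 for all probe sets tested and 0.38 for the brightest 10% of them, and it was 0.56 for the 6 regulators. The steadiest gene was eif2s3, the subunit of eIF2 that binds the initiator tRNA, with an SD of 0.128. Its signals were 2481, 2817 and 3123 on arrays labelled lhx1-AS/AcRA, 2442, 3239 and 2818 on the lhx1-AS arrays, 2695, 2914 and 3112 on the AcRA arrays and 2728, 2964 and 3018 on the C arrays, in the order of experiments I, II and III that is used throughout. All 4 groups overlapped. Among the genes in the brightest 10% the stalk protein gene rplp1 varied most, with an SD of 0.681, and its lowest signals lay in experiment I in every group.

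**Figure D1:**
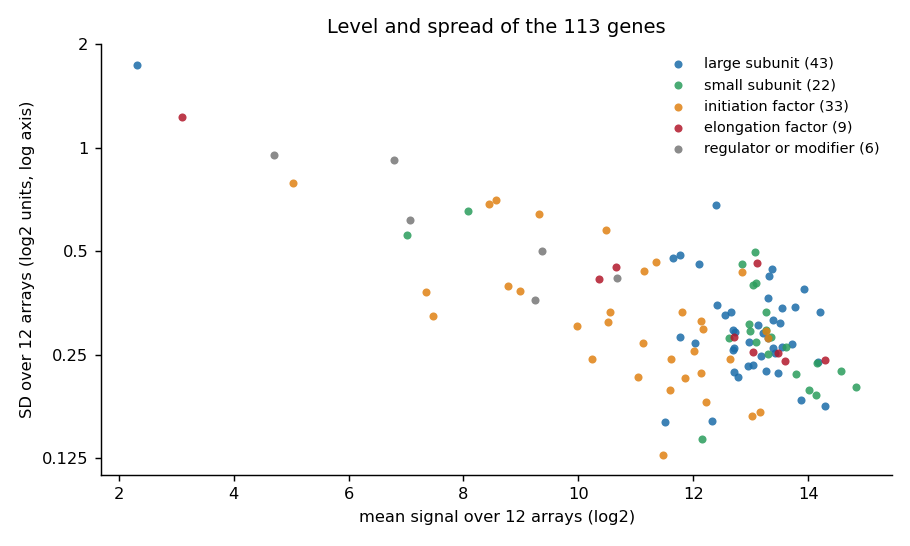
Mean log2 signal (horizontal axis) against the SD of the log2 signal over 12 arrays (vertical axis, log scale) for each of the 113 genes, coloured by class. Most genes lie at the right with an SD under 0.5, and the few dim genes, rpl3l and eef1a2 at the far left, have the widest spread.

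The deposited signals had been scaled by the authors so that every array had the same trimmed mean, between 500.07 and 500.09. The brightest probe sets of the 113 genes, 1 per gene, made up 7.64 to 8.38% of the summed signal on arrays labelled lhx1-AS/AcRA. The share was 8.60 to 9.15% on the lhx1-AS arrays, 6.18 to 7.81% on the AcRA arrays and 6.81 to 7.59% on the C arrays. Further probe sets of these genes are not in this share. The trimmed mean was taken without the brightest and dimmest 2% of probe sets, and 42 of the 113 genes were among the brightest 1%. How far the level of these genes entered the scaling of an array was not tested. The median signal of all probe sets was 108 to 124 on the arrays of injected caps and 126 to 151 on those of uninjected caps. Multiplying each array to a common median therefore raised the median difference of all probe sets to 0.26 between lhx1-AS/AcRA and AcRA and to 0.24 between lhx1-AS and C, and medians below are given beside that of all probe sets. Any single gene at the common median is to be read against those shifts. The lhx1 signals themselves were 1144, 991 and 1614 on arrays labelled lhx1-AS/AcRA, 1.55, 42.6 and 3.20 on the lhx1-AS arrays, 316, 823 and 779 on the AcRA arrays and 19.8, 2.19 and 2.60 on the C arrays. The injected and treated caps thus held no less signal of the targeted gene than the AcRA caps, and for this reason the group is named by its label throughout. The lhx1-AS array of experiment I stood apart, with a ratio of 3' to 5' signal of 5.40 for the actin control and 13.4 for the Gapd control, against 0.456 to 0.908 and 2.88 to 4.36 on the other arrays. Calls of the 113 genes in lhx1-AS against C that changed without it are given both ways.

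The median signal of the 113 genes was 6911, 6475 and 7115 on arrays labelled lhx1-AS/AcRA and 9063, 7455 and 7675 on the lhx1-AS arrays, against 4909, 6138 and 6874 on the AcRA arrays and 5578, 6045 and 7019 on the C arrays. The 3 lhx1-AS arrays lay above every array of uninjected caps, while the arrays labelled lhx1-AS/AcRA overlapped the AcRA and C arrays. With arrays scaled to a common median the values were 7922, 7205 and 7224 on arrays labelled lhx1-AS/AcRA, 10515, 8376 and 7733 on the lhx1-AS arrays, 4517, 5873 and 6136 on the AcRA arrays and 5414, 6001 and 5803 on the C arrays. At that scaling all 6 arrays of injected caps lay above all 6 of uninjected caps.

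**Figure D2:**
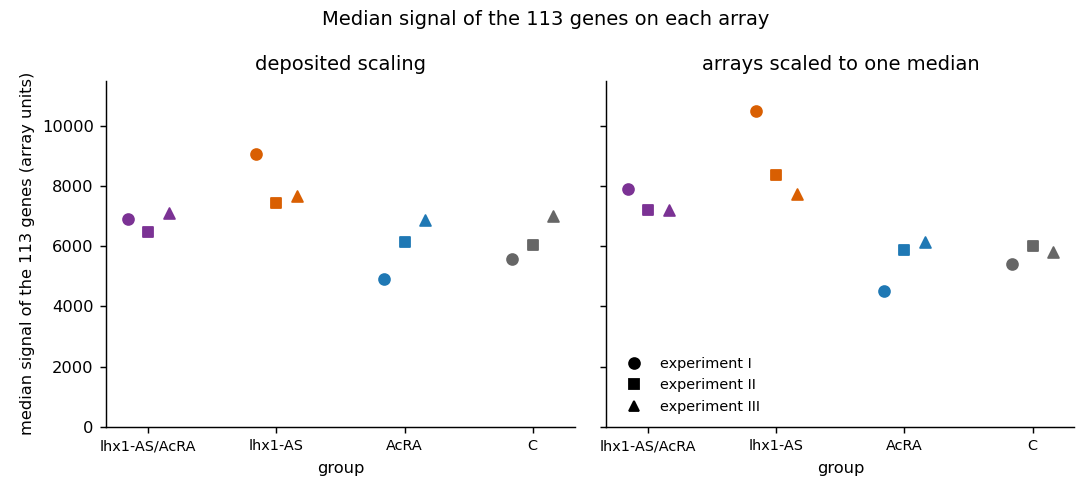
Median signal of the 113 genes (vertical axis, array units) on each of the 12 arrays, by group (horizontal axis) and experiment (marker shape), at the deposited scaling (left) and with arrays scaled to a common median (right). The arrays of injected caps reach 10515 at the common median, where none of the uninjected caps passes 6136, and at the deposited scaling the groups lhx1-AS/AcRA, AcRA and C overlap.

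The effect of lhx1-AS without treatment was read from lhx1-AS against C. Most of the 113 genes had slightly higher signals in the injected caps: the median difference was 0.35 on the log2 scale, against -0.01 over all probe sets, and 100 of the 113 lay above 0. Outside the 174 probe sets of the 113 genes, the 99th percentile of the signals was 7933, 8592 and 8613 on the lhx1-AS arrays. On the C arrays it was 7300, 7817 and 7333. The brightest of the other probe sets thus also reached higher signals at that percentile, while all probe sets include many far dimmer ones. Outside the 174 probe sets the 90th percentile was 1616, 1574 and 1533 on the lhx1-AS arrays. On the C arrays it was 1571, 1577 and 1542, so the groups overlapped there. The others still held 18 probe sets annotated to both homeologs of ribosomal or translation genes, rpl4 and rps20 among them. With limma 6 of the 113 genes rose and none fell at an adjusted p under 0.05. Of all probe sets 2.52% were called higher and 4.47% lower. The 3 lhx1-AS arrays lay above all 3 C arrays for 55 of the 113 genes (11.8% of all probe sets) and below them for 3 (14.3%). With the experiment as a block 26 genes rose and 3 fell, where 7.41 and 10.4% of all probe sets did. With arrays scaled to a common median 27 rose and none fell (5.08 and 3.08% of all probe sets), and the median was 0.59 against 0.24. Quantile normalization, which gives every array the same distribution of signals, left a median of 0.17 against 0.08 over all probe sets, with 3 genes higher and 2 lower (3.27 and 3.72%), and there the median of the elongation factors turned to -0.02.

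The large subunit proteins had a median difference of 0.41, 42 of 43 lay above 0 and 2 rose, rpl4 and rplp2. The acidic protein gene rplp2 encodes part of the stalk that recruits elongation factors, and its signals were 6578, 3965 and 4149 on the lhx1-AS arrays, against 2607, 2635 and 2826 on the C arrays. The groups did not overlap, and the array of experiment I was the highest by far. The difference was 0.83 (standard error 0.23, limma adjusted p = 0.0408). The same fit gave, with the lhx1-AS array of experiment I left out, 0.59 (limma adjusted p = 0.102). For rpl4, whose protein lines the exit tunnel of the ribosome, the signals were 12602, 11876 and 12380.1 on the lhx1-AS arrays and 8181, 7077 and 8955 on the C arrays. These were even within each group and did not overlap, with a difference of 0.61 (standard error 0.17, limma adjusted p = 0.0394), which was 0.59 (limma adjusted p = 0.0661) without that array. The stalk base gene rplp0 had 15233, 13216 and 14129.9 on the lhx1-AS arrays and 6488, 8443 and 9676 on the C arrays, a difference of 0.81 that just missed the threshold (limma adjusted p = 0.0527) and passed it with the experiment as a block (limma adjusted p = 0.00973). For rpl8 the difference was 0.43 (limma adjusted p = 0.303), and for rpl30, which gave the highest signals of the class, 0.29 (limma adjusted p = 0.313).

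The small subunit proteins had a median difference of 0.42, with 21 of 22 above 0 and 2 that rose, rps12 and rps19. The signals of rps12 were 13639.8, 11480.1 and 10916 on the lhx1-AS arrays, against 7815, 7348 and 7327 on the C arrays, again without overlap. The difference was 0.67 (standard error 0.16, limma adjusted p = 0.0240) and 0.58 (limma adjusted p = 0.0573) without the lhx1-AS array of experiment I. For rps19, whose human counterpart is mutated in Diamond-Blackfan anaemia, the signals were 16147, 17403 and 14780.5 on the lhx1-AS arrays and 11528, 10871 and 11376 on the C arrays. They did not overlap, and the difference was 0.51 (standard error 0.15, limma adjusted p = 0.0492), a call that was lost when any 1 of the 12 arrays was left out, with adjusted p between 0.0541 and 0.157. Without the lhx1-AS array of experiment I the difference of rps19 was 0.51 (limma adjusted p = 0.0705). When each of the 12 arrays was left out in turn, the call held 7 times for rps12, 6 times for rplp2 and 4 times for rpl4, and was lost without any 1 of the C arrays. At quantile normalization none of these 4 ribosomal protein genes passed, with differences of 0.76 for rplp2, 0.35 for rpl4, 0.42 for rps12 and 0.28 for rps19 and adjusted p between 0.0561 and 0.231. The protein rps6, which S6 kinases phosphorylate, differed by 0.14 (limma adjusted p = 0.685), rpsa, which is also known as the laminin receptor precursor, by 0.42 (limma adjusted p = 0.323) and rps29 by 0.32 (limma adjusted p = 0.276). Of genes chosen after their values were seen, rps9 had 10931, 11915 and 13786 on the lhx1-AS arrays and 5297, 8545 and 7308 on the C arrays. The difference of 0.81 missed the threshold (limma adjusted p = 0.0525) and passed it with the experiment as a block (limma adjusted p = 0.00437). A dimmer probe set of rps9 lay at 0.20, and one annotated to both homeologs at 0.36 (limma adjusted p = 0.391). Another such gene, rps20, differed by 1.08 (limma adjusted p = 0.0720). It passed with the block, at a common median and at quantile normalization (limma adjusted p = 0.00719, 0.0258 and 0.0301). Without the lhx1-AS array of experiment I the difference of rps20 was 0.94 (limma adjusted p = 0.141). In lhx1-AS/AcRA against AcRA rps20 differed by 1.10 and was not called at the deposited scaling without the block. It passed there with the block (limma adjusted p = 0.00530), at a common median (1.34, limma adjusted p = 0.0192) and at quantile normalization (1.29, limma adjusted p = 0.0231). The probe set was dim for this class, with a mean signal of 270. One annotated to both homeologs lay at 0.20 in that comparison (limma adjusted p = 0.608).

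Initiation factors were less uniform than the subunit proteins. Of the 33, 2 rose in lhx1-AS against C and none fell, 25 lay above 0 and the median was 0.24, with a range of -1.19 to 1.25. The largest difference of a called gene was that of eif4a2, an RNA helicase that unwinds the start of mRNAs within the cap-binding complex. Its signals were 827, 972 and 978 on the lhx1-AS arrays and 316, 384 and 480.2 on the C arrays. The groups lay far apart, and the difference was 1.25 (standard error 0.27, 95% confidence interval 0.68 to 1.82, limma adjusted p = 0.0137). The call held at each of the 3 scalings and was lost without the C array of experiment I (1.10, limma adjusted p = 0.0637) or the lhx1-AS array of experiment III (1.21, limma adjusted p = 0.0534). Its close relative eif4a1 had a difference of 0.57 (limma adjusted p = 0.154, 0.0407 with the experiment as a block), and eif4a3.1, a relative that sits in the exon junction complex, one of 0.24 (limma adjusted p = 0.620). The arrays can share probes between such relatives, which were not separated here.

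For a pair of the scaffold proteins that hold eIF4A to the cap the differences lay below 0. The signals of eif4g1 were 2837, 1709.5 and 1666 on the lhx1-AS arrays, against 3757, 3274 and 3056 on the C arrays, with the lhx1-AS array of experiment I well above the other lhx1-AS arrays but below all C arrays. The difference of -0.74 (limma adjusted p = 0.0583) passed with the experiment as a block (limma adjusted p = 0.0117) and at quantile normalization (limma adjusted p = 0.0427), and it was -0.50 (limma adjusted p = 0.252) at the common median, where all probe sets lay at 0.24. Without the lhx1-AS array of experiment I eif4g1 fell by 0.99 (limma adjusted p = 0.00883). Among the genes chosen after their values were seen, eif4g3 had 98.9, 306 and 324 on the lhx1-AS arrays and 547, 465 and 455 on the C arrays (difference -1.19, limma adjusted p = 0.0830, 0.0407 with the block). Its lowest signal was that of the lhx1-AS array of experiment I, and without that array the difference of eif4g3 was -0.63 (limma adjusted p = 0.171). The helicase partner eif4h had 1387, 690.3 and 1014 on the lhx1-AS arrays and 2130.1, 2074 and 2049 on the C arrays (difference -1.07, limma adjusted p = 0.0502, 0.0188 with the block). Without that array eif4h was called, with a difference of -1.32 (limma adjusted p = 0.0238). The third scaffold gene, eif4g2, which acts without the cap-binding protein, differed by 0.30 (limma adjusted p = 0.411). The other cap-complex genes lay close together: of the cap-binding proteins, eif4e1b, which is best known from oocytes, differed by 0.41, eif4e2 by 0.30 and eif4e3 by 0.25, with adjusted p between 0.340 and 0.756 in limma.

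The 3 subunits of eIF2, the factor that carries the initiator tRNA, were not called together. For eif2s2, the beta subunit, the signals were 5087, 5319.7 and 7142 on the lhx1-AS arrays and 4066, 3424 and 3163 on the C arrays, without overlap, and the difference was 0.71 (standard error 0.19, limma adjusted p = 0.0374). At quantile normalization it was 0.57 (limma adjusted p = 0.0693). The call of eif2s2 was also lost without any 1 of the C arrays, the lhx1-AS array of experiment II or III, or the AcRA array of experiment II, with differences between 0.56 and 0.81 and limma adjusted p up to 0.149. The same gene's other homeolog, eif2s2.L, read 2006, 2008 and 2054 on the lhx1-AS arrays and 2779.9, 2323 and 2622 on the C arrays, a difference of -0.34 (limma adjusted p = 0.332). The alpha subunit gene eif2s1, whose protein the eIF2 kinases phosphorylate, differed by -0.14 and the gamma subunit gene eif2s3 by -0.04 (limma adjusted p = 0.829 and 0.930). In eIF3, the large complex that keeps the subunits apart and binds eIF4G, none of 11 measured subunits passed in any of the 4 pairwise comparisons at the deposited scaling. In lhx1-AS against C 10 of the 11 lay above 0, between -0.04 for eif3c and 0.55 for eif3i, with a median of 0.24. For eif6, which keeps free large subunits from joining, the difference was 0.50 (limma adjusted p = 0.312).

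**Figure D3:**
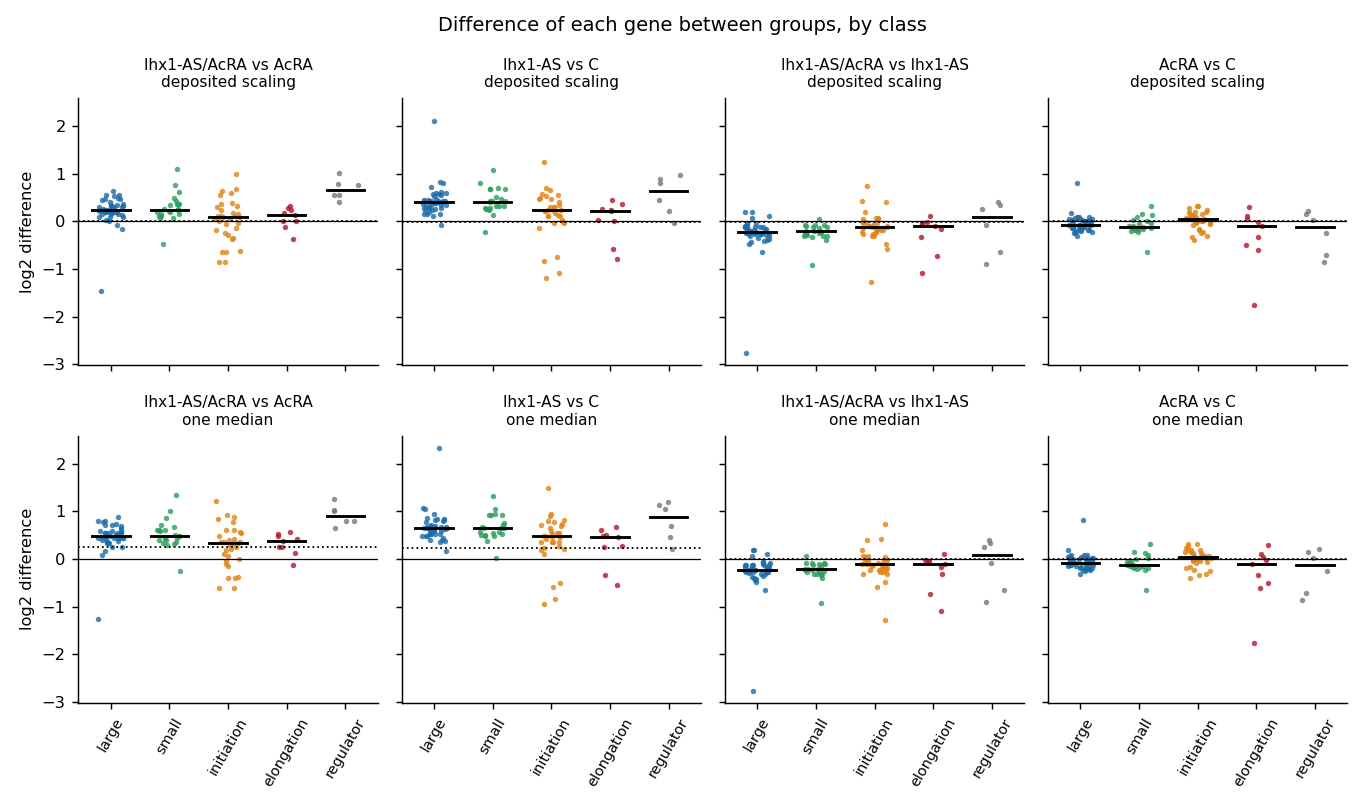
Log2 difference of each gene (points) between groups, by class (horizontal axis), at the deposited scaling (top) and at a common median (bottom). Thick bars mark the class median and the dotted line the median over all probe sets, which lies at 0.24 and 0.26 in the lower lhx1-AS against C and lhx1-AS/AcRA against AcRA panels. The subunit class medians sit above the dotted line in both comparisons of injected with uninjected caps (at quantile normalization, not drawn, the 0.10 of the small subunit in lhx1-AS/AcRA against AcRA equals that of all probe sets), whereas the initiation factors spread to both sides.

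The same question in induced caps, lhx1-AS/AcRA against AcRA, sets other arrays against each other, within the same fit and its shared spread. At the deposited scaling the medians of the subunit proteins again lay above that of all probe sets, by less: the median difference was 0.21 over the 113 genes, against 0.02 over all probe sets, with 94 above 0. Outside the 174 probe sets, with the same 18 left in, the 99th percentile of the signals was 7726, 8029 and 8767 on arrays labelled lhx1-AS/AcRA. On the AcRA arrays it was 7155, 7376 and 7939. Of the 113, 1 rose (eif4a2) and 1 fell (eif4g1), where 2.70% of all probe sets were called higher and 6.94% lower. The class medians were 0.24 for the large subunit (40 of 43 above 0), 0.25 for the small subunit (21 of 22), 0.10 for initiation factors (20 of 33) and 0.13 for elongation factors (7 of 9). The arrays labelled lhx1-AS/AcRA lay above all AcRA arrays for 23 genes (12.8% of all probe sets) and below them for 4 (16.4%). With the experiment as a block 10 genes rose and 1 fell (6.98 and 11.9% of all probe sets), and at a common median 13 rose and none fell (4.75 and 4.84%), with a median of 0.45 against 0.26. At quantile normalization the median of the 113 genes was 0.10, as over all probe sets, with 2 genes higher and 1 lower (3.32 and 5.87%), and the medians of initiation and elongation factors were -0.02 and -0.00, so the higher median here depends on how the arrays were scaled.

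The signals of eif4a2 were 969, 949 and 979 on arrays labelled lhx1-AS/AcRA and 348, 523 and 635 on the AcRA arrays, a difference of 0.99 (standard error 0.27, 95% confidence interval 0.41 to 1.56, limma adjusted p = 0.0313). The groups were far apart, and the AcRA array of experiment I was the lowest. The call held at each of the 3 scalings and was lost without any 1 of the 3 arrays labelled lhx1-AS/AcRA or without the AcRA array of experiment I or II, with differences between 0.74 and 1.04 and adjusted p between 0.0585 and 0.148. The signals of eif4g1 were 1895, 2056 and 1959 on arrays labelled lhx1-AS/AcRA and 3863, 3586 and 3237 on the AcRA arrays. They were nearly equal within the labelled group, and the difference was -0.85 (standard error 0.22, limma adjusted p = 0.0242). At the common median it was -0.61 (limma adjusted p = 0.150), where all probe sets lay at 0.26, and the call was lost without any 1 of the 6 arrays compared, with adjusted p between 0.0506 and 0.0970. The genes rplp0 and rplp2 of the stalk differed by 0.54 and 0.64 (limma adjusted p = 0.185 and 0.0952), and both passed at the common median, with that shift included (limma adjusted p = 0.0499 and 0.0418), rplp2 also with the experiment as a block (limma adjusted p = 0.0478). For eif6 the difference was 0.59 (limma adjusted p = 0.217, 0.0379 with the block). At the deposited scaling without the block rps12 differed by 0.25, rps19 by 0.37, rpl4 by 0.30 and eif2s2 by 0.16. None of these passed there (limma adjusted p between 0.144 and 0.682). At the common median, with that shift included, rps19 passed (0.61, limma adjusted p = 0.0385), while rps12, rpl4 and eif2s2 did not. With the block added at the common median rpl4 passed too (limma adjusted p = 0.0258).

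**Figure D4:**
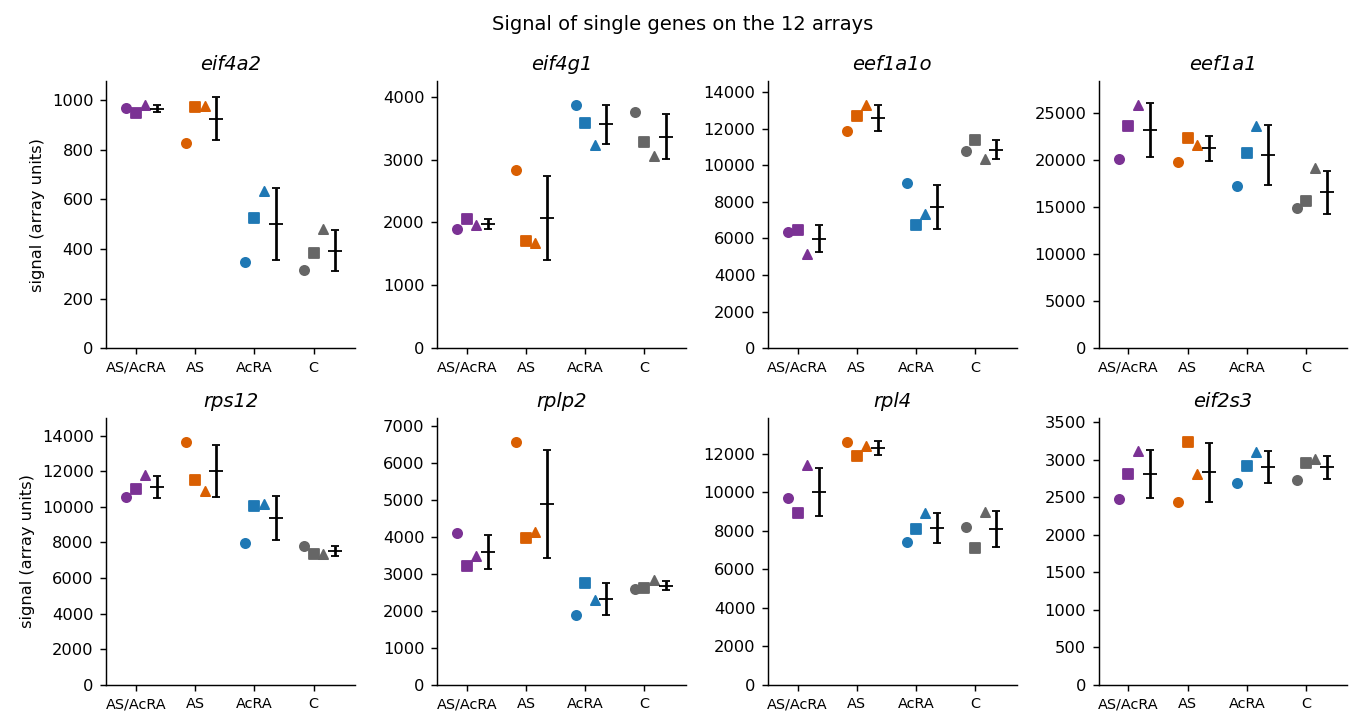
Signal (vertical axis, array units, from 0) of 8 genes on the 12 arrays, by group (AS/AcRA is lhx1-AS/AcRA and AS is lhx1-AS); circles, squares and triangles are experiments I, II and III, and bars at the right of each group give the mean and SD of 3 arrays. The signals of eif4a2 are higher and those of eif4g1 lower in injected than in uninjected caps, eef1a1o is lowest on arrays labelled lhx1-AS/AcRA, and eif2s3 overlaps in all groups.

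Within the experiments the sizes of the medians differed and the medians of the 113 genes kept their direction. In lhx1-AS against C the median of the 113 genes was 0.46, 0.36 and 0.23 in experiments I, II and III, where that of all probe sets was -0.04, 0.04 and -0.03. It was 0.60, 0.40 and 0.28 for the large subunit, 0.54, 0.40 and 0.34 for the small subunit, 0.24, 0.28 and 0.18 for initiation factors and 0.14, 0.25 and 0.01 for elongation factors. In lhx1-AS/AcRA against AcRA the median was 0.34, 0.17 and 0.12, where that of all probe sets was 0.01, -0.06 and 0.07. It was 0.39, 0.19 and 0.14 for the large subunit, 0.43, 0.18 and 0.14 for the small subunit, 0.09, 0.05 and 0.01 for initiation factors and 0.02, 0.19 and 0.02 for elongation factors. In experiment III both factor classes thus lay below all probe sets, and the 113 genes lay 0.05 above them. Experiment I thus gave the highest value for the subunit proteins in both, and it holds the lhx1-AS array that stood apart and the AcRA array with the lowest median of the 113 genes. Without that lhx1-AS array the median in lhx1-AS against C stayed 0.35, with 2 genes higher and 2 lower (2.84 and 5.24% of all probe sets). Leaving out a C array left 0, 2 or 1 genes higher for experiments I, II and III, where 1.04, 2.19 and 0.987% of all probe sets were higher. Leaving out the lhx1-AS array of experiment II or III left 3 or 1 (1.24 and 0.910%), and leaving out the AcRA array of experiment I, which enters that comparison only through the shared spread, gave 10 (2.54%). Without the AcRA array of experiment I the median in lhx1-AS/AcRA against AcRA was 0.10, and no gene was called in either direction (1.39 and 3.83% of all probe sets).

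**Figure D5:**
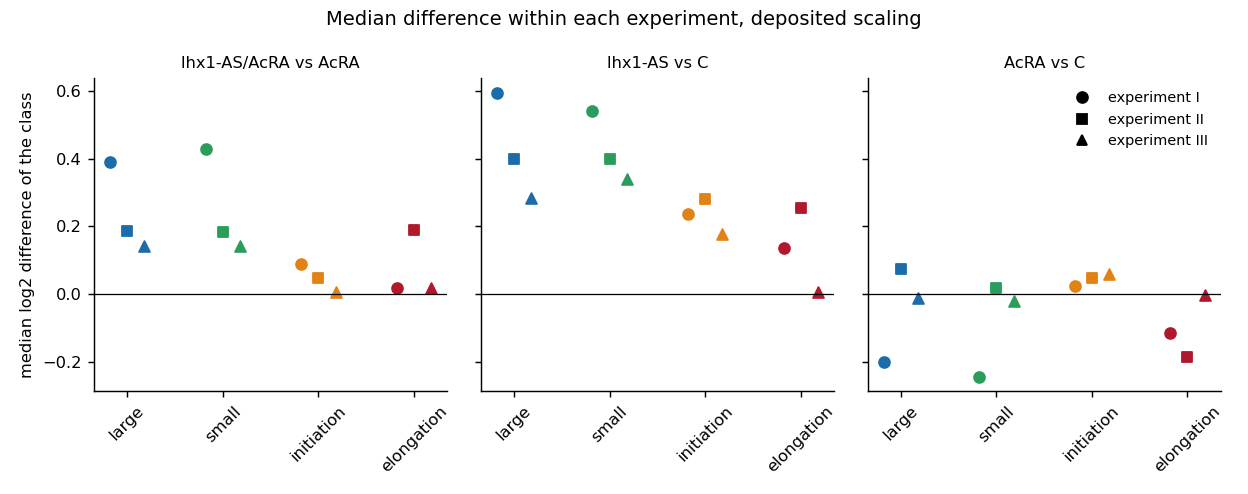
Median log2 difference of 4 classes (horizontal axis) within experiments I, II and III (circle, square, triangle) at the deposited scaling, for 3 comparisons. The regulators and modifiers are not drawn. The subunit proteins lie between 0.14 and 0.60 in both comparisons of injected with uninjected caps and between -0.24 and 0.07 in AcRA against C.

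Activin and retinoic acid, which turn the uninjected cap toward mesoderm and endoderm, gave no call on the brightest probe set of any of these genes. In AcRA against C none of the 113 passed with limma, where 3.09% of all probe sets were called higher and 2.62% lower. The median difference was -0.03, against 0.01 over all probe sets, and 50 genes lay above 0. For 106 of the 113 the difference was smaller than 0.5 in size, and the median standard error was 0.21. The class medians were -0.07 for the large subunit, -0.11 for the small subunit, 0.05 for initiation factors and -0.09 for elongation factors, and the median over the 113 was -0.13, 0.04 and -0.00 in the 3 experiments. With the experiment as a block none was called either (5.29 and 5.14% of all probe sets), nor at a common median (3.12 and 2.71%). In the same comparison 4 of 8 mesoderm markers and 4 of 8 endoderm markers rose, 3 of 10 ectoderm markers fell, and of 5 organizer markers 1 rose and 1 fell. Over all 174 probe sets of the 113 genes 1 was called, the eef1a1o.L probe set described below.

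After injection the treated caps were set against the untreated ones, lhx1-AS/AcRA against lhx1-AS. The median over the 113 genes was -0.18, against -0.00 over all probe sets, and 17 lay above 0. The large subunit had a median of -0.22 (4 of 43 above 0) and the small subunit one of -0.21 (1 of 22). No gene rose and 1 fell, eef1a1o, where 4.00% of all probe sets were called higher and 4.09% lower. With the experiment as a block rpl13a fell as well (-0.47, limma adjusted p = 0.0493), where 6.34 and 6.64% of all probe sets were called higher and lower. This comparison shares its arrays with those above, as AcRA against C does. The difference between the 2 responses to activin and retinoic acid was tested in the same model, and no gene passed. Of all probe sets 0.168% were called higher and 0.271% lower. The median over the 113 genes was -0.14, against -0.03 over all probe sets.

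The gene eef1a1o encodes the oocyte form of EF1a, the factor that delivers tRNAs to the ribosome. Its signals were 6324, 6471 and 5123 on arrays labelled lhx1-AS/AcRA and 11855, 12669.6 and 13268 on the lhx1-AS arrays, 9035, 6717 and 7347 on the AcRA arrays and 10788, 11384 and 10342 on the C arrays. Every array of the treated groups lay below every array of the untreated groups. The difference between lhx1-AS/AcRA and lhx1-AS was -1.08 (standard error 0.17, limma adjusted p = 0.000674), a call that held at the 3 scalings and without any 1 of the 12 arrays, and that between AcRA and C was -0.50 (limma adjusted p = 0.121). The probe set for the other homeolog, eef1a1o.L, read 596, 998 and 772 on arrays labelled lhx1-AS/AcRA and 2411, 1489.9 and 1980.2 on the lhx1-AS arrays, 916, 1048 and 850.0 on the AcRA arrays and 2668, 3749 and 5854 on the C arrays. It fell by 1.32 in lhx1-AS/AcRA against lhx1-AS (limma adjusted p = 0.0105) and fell by 2.06 in AcRA against C (limma adjusted p = 0.000580). The difference of the 2 responses did not pass for eef1a1o (-0.58, limma adjusted p = 0.632). The gene eef1a1, the form of later embryos, had 20132, 23593 and 25796 on arrays labelled lhx1-AS/AcRA, 19789.8, 22346 and 21599.8 on the lhx1-AS arrays, 17269, 20692 and 23586 on the AcRA arrays and 14929.9, 15594 and 19098 on the C arrays. It was not called in any comparison at the deposited scaling, with 0.31 in AcRA against C and 0.37 in lhx1-AS against C (limma adjusted p = 0.463 and 0.225, 0.0381 in lhx1-AS against C at a common median). A primer pair for EF1a served the study as the loading control of its RT-PCR, and which of these genes it amplifies was not examined here.

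None of the other elongation factors was called on its brightest probe set at the deposited scaling. A dimmer probe set of eef1g, for the gamma subunit of the exchange factor of EF1a, was called, and it is named here after its values were seen. This probe set, for the homeolog eef1g.S, read 1103, 1008 and 1093 on arrays labelled lhx1-AS/AcRA and 1853, 2737 and 2097 on the AcRA arrays, a difference of -1.04 (limma adjusted p = 0.0110), where the brightest probe set of eef1g lay at 0.14 (limma adjusted p = 0.785). The signals of eef2.1, whose product moves the ribosome by a codon, were 5527, 6375 and 7668 on arrays labelled lhx1-AS/AcRA, 5458, 7393 and 8196 on the lhx1-AS arrays, 5552, 5721 and 8464 on the AcRA arrays and 5122, 7250.3 and 8790.4 on the C arrays, with differences between -0.10 and 0.01 in the 4 pairwise comparisons. The lowest signal of each group came from experiment I, and the groups overlapped. For eif5a, which carries the modified lysine hypusine and helps the ribosome through difficult stretches, the signals were 13517, 14394 and 13338 on the lhx1-AS arrays and 9418, 10035 and 10952 on the C arrays, a difference of 0.44 (limma adjusted p = 0.154, 0.0488 with the block). All 5 probe sets of eif5a lay above 0 in that comparison, between 0.41 and 0.66.

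None of the 6 regulators and modifiers was called in any pairwise comparison at the deposited scaling without the block. Their median in lhx1-AS/AcRA against AcRA was 0.58, 0.57 and 0.89 in experiments I, II and III, above each other class. In lhx1-AS against C it was 0.89, 0.67 and 0.18, the highest class in experiments I and II only. A higher median was thus not particular to the subunit proteins. These are few genes, dimmer and more variable than the other classes. The gene eef1akmt1, named after its values were seen, differed by 0.88 in lhx1-AS against C (limma adjusted p = 0.0642). It passed there with the block, at a common median and at quantile normalization (limma adjusted p = 0.0167, 0.0400 and 0.0391). Without the lhx1-AS array of experiment I it was 0.75 (limma adjusted p = 0.132). In lhx1-AS/AcRA against AcRA it differed by 0.79 and passed with the block (limma adjusted p = 0.0263). The eIF4E binding protein gene eif4ebp2, whose product blocks cap-dependent initiation until it is phosphorylated, had 908, 685 and 795 on arrays labelled lhx1-AS/AcRA and 609, 803 and 591 on the lhx1-AS arrays, against 684, 538 and 429 on the AcRA arrays and 517, 544 and 403 on the C arrays. The differences were 0.55 in lhx1-AS/AcRA against AcRA and 0.45 in lhx1-AS against C (limma adjusted p = 0.233 and 0.344). The gene eif4enif1, whose product carries eIF4E into the nucleus, had 0.55 in lhx1-AS/AcRA against AcRA (limma adjusted p = 0.329, 0.0385 with the block) and -0.03 in lhx1-AS against C. The heme-regulated eIF2 kinase gene eif2ak1 was dim, with 12.6, 50.3 and 36.8 on arrays labelled lhx1-AS/AcRA, 43.1, 50.8 and 41.0 on the lhx1-AS arrays, 11.0, 13.9 and 18.3 on the AcRA arrays and 10.4, 27.2 and 58.8 on the C arrays, and the groups compared overlapped. Also dim on their brightest probe sets were the eIF2B subunit gene eif2b4 and the small subunit gene rps10, with mean signals of 32.6 and 129 and no call. For rps10 this rests on probe sets with 1 symbol. A probe set annotated to both its homeologs lay at 0.35 in lhx1-AS against C, where the brightest single-symbol one lay at -0.21 (limma adjusted p = 0.242 and 0.818).

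Xenopus laevis carries most genes as a pair of homeologs, .L and .S. The 113 genes had 174 probe sets, 40 of the genes had several, and 17 had separate probe sets for both homeologs. In lhx1-AS against C both homeologs lay above 0 for 10 of the 17 and on opposite sides for 6. The pair of rplp2 passed with both (0.91 for .L and 0.83 for .S, limma adjusted p = 0.0400 and 0.0408), whereas rps12 and rpl4 passed with 1 homeolog and lay at 0.87 and 0.52 with the other (limma adjusted p = 0.0952 and 0.143). In lhx1-AS/AcRA against AcRA both lay above 0 for 11 of 17, and in lhx1-AS/AcRA against lhx1-AS both lay below 0 for 13. Homeologs are close in sequence and may share signal, so a pair is not independent evidence. A further 18 probe sets are annotated to both homeologs of a pair and would add 3 genes. For rps20 such a probe set lay at 0.41 in lhx1-AS against C, where its brightest single-homeolog probe set lay at 1.08.

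Genes that work beside the ribosome were counted in 4 lists. Of 46 ribosome assembly genes, which process rRNA and load the subunit proteins, 8 rose and 1 fell in lhx1-AS against C with a median of 0.50, and 38 lay above 0, where 2.52% of all probe sets rose and 4.47% fell. Among them mrto4 rose by 1.36, noc4l by 1.06, nop2 by 1.03 and tsr1 by 1.01 (limma adjusted p = 0.0132, 0.0307, 0.0365 and 0.0139), and pes1 fell by 1.04 (limma adjusted p = 0.0471, 0.154 at a common median). In lhx1-AS/AcRA against AcRA nop10 rose and pes1 fell, with a median of 0.29, and with the experiment as a block 11 rose and 3 fell (6.98 and 11.9% of all probe sets). None was called in AcRA against C, with a median of 0.10. Of 16 tRNA synthetase genes none rose in lhx1-AS against C, vars1 fell by 1.30 (limma adjusted p = 0.0368, 0.0677 at a common median) and the median was -0.10. Of 8 release factor and ribosome-linked genes pabpc4, a relative of the poly(A) binding protein, rose by 1.39 (limma adjusted p = 0.0239), with a median of 0.12. Of 7 growth signalling genes none was called there, and the median was -0.19. At the shares of all probe sets given above, 0 or 1 call in lists of 7 to 16 genes is a count that says little about them.

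The tissue markers of the caps moved with the groups as well. The summed signal of 10 ectoderm markers was 3376 to 7310 on arrays labelled lhx1-AS/AcRA, 30896 to 35537 on the lhx1-AS arrays, 19706 to 28810 on the AcRA arrays and 39448 to 51025 on the C arrays. That of 8 mesoderm markers was 5639 to 7919 on arrays labelled lhx1-AS/AcRA and 169 to 305 on the lhx1-AS arrays, against 6310 to 7227 on the AcRA arrays and 107 to 288 on the C arrays. For 5 organizer markers, lhx1 among those listed, the sums were 6705 to 15062, 785 to 1044, 456 to 1111 and 218 to 511 in the same order. For 8 endoderm markers they were 22817 to 26571, 579 to 1650, 7122 to 10905 and 954 to 1772. In lhx1-AS against C, where 2 large and 2 small subunit proteins rose, none of the ectoderm markers was called, 1 of 8 mesoderm markers rose (eomes) and 1 of 8 endoderm markers fell (gata6, lost at a common median with limma adjusted p = 0.0855), where 2.52% of all probe sets rose and 4.47% fell. In lhx1-AS/AcRA against AcRA 4 of 10 ectoderm markers fell and 1 rose, and 3 of 5 organizer and 3 of 8 endoderm markers rose, where 2.70% of all probe sets rose and 6.94% fell. Of the 8 mesoderm markers 1 rose and 1 fell there, with a median of -1.69. The part of tissue makeup in the signals of the ribosomal genes was not tested.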

How the data were processed

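Animal cap RNA of 4 groups was hybridised to 12 Affymetrix Xenopus laevis Genome Arrays of the first generation, 3 per group. The authors quantified and scaled each array with GCOS (version not given in the sources used here) and deposited 1 linear signal intensity per probe set, without detection calls, so a signal near background cannot be told from none. The table held 15611 probe sets, of which 108 control probe sets were left out. Of all 15611, 9304 had 1 gene symbol in GEO's platform annotation, 195 had several and 6112 had none, and 2 symbols were updated through RefSeq. Genes with several symbols on a probe set were not named.

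Signals under 1 (0.298% of those tested) were set to 1 and taken to log2. All 12 arrays were fitted with 4 group means in limma 3.58.1 (lmFit, and eBayes with a trend; R 4.3.3), with Benjamini-Hochberg adjustment over 15503 probe sets and a threshold of 0.05. A difference is the mean log2 signal of the group named first minus that of the other. Confidence intervals are at 95%. The number of arrays limits the precision. The experiment number pairs the arrays: deviations from the group means correlated at 0.152 to 0.269 in 18 pairs of arrays of the same experiment. In the other 36 pairs they correlated at -0.190 to -0.0037. Deviations cancel within each group, so these lower values follow from the positive ones and are no separate sign of pairing. The experiment as a block is given where it changes the call of a described difference of a ribosomal or translation gene on its brightest probe set. Other calls with the block enter the counts only. Replicates were separate pools of caps per the labels and methods.

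Members and lists were chosen with earlier results of these data known, so medians and counts over them are descriptions. Named genes were, per comparison, called members that moved the same way in 3 of 3 experiments (up to 8, by size), the eef1a, eif4a, eif4e, eif4ebp, eif5a and eif2s families, rplp0, rps6, rpl8, rpsa, eef2, eif6, and the brightest and dimmest member of each class. Alternatives were scaling to a common median, quantile normalization, the block, 64 added to every signal, a filter on the dimmest 40%, the compared groups only, every probe set, probe sets of both homeologs, the methods' t-test and leaving out each array.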

Additional observations from a re-analysis of the deposited data

Results flagged for a closer look

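The lhx1-AS array of experiment I had a ratio of 3' to 5' signal of 5.40 for the actin control probe sets and of 13.4 for the Gapd control probe sets. These probe sets are not among the 113 genes but are among the 15503 probe sets tested. On the 11 other arrays the ratios were 0.456 to 0.908 and 2.88 to 4.36. The same array had the highest median signal of the 113 genes, 9063. Without it the median difference in lhx1-AS against C was 0.35, 2 of the 113 genes were called higher and 2 lower (eif4g1 and eif4h), and the median in lhx1-AS/AcRA against lhx1-AS was -0.17. The calls of rplp2, rpl4, rps12 and rps19 in lhx1-AS against C were lost without it. In lhx1-AS/AcRA against AcRA, which that array enters only through the shared spread, 3 genes were called higher and 1 lower without it. There 3.21 and 7.93% of all probe sets were called higher and lower.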

How the results depend on the processing

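Of the 160 differences of named genes, none changed direction past the threshold under the alternatives run on the same probe set. Over these alternatives a call was lost 71 times and gained 43 times, and stayed as it was 3002 times. Other probe sets of the same gene were not among them. In lhx1-AS against C eif2s2.S was called at 0.71, where eif2s2.L lay at -0.34. Shares in brackets are those of all probe sets called higher and lower in the same setting. In lhx1-AS against C (6 genes higher, none lower, median 0.35) the block gave 26 and 3 (7.41 and 10.4%), a common median 27 higher (5.08%) and a median of 0.59, both together 65 (13.6%) and again 0.59, quantile normalization 3 and 2 (3.27 and 3.72%) with a median of 0.17, 64 added to each signal 11 and 1 (2.88 and 6.15%), and the dim filter 15 and 2 (5.48 and 8.51%). A fit of the compared groups only called 2 higher (1.50%), and the methods' t-test 39 and 3 at unadjusted p under 0.05 (7.04 and 8.73%) and 0 higher (0.0194%) after Benjamini-Hochberg. In lhx1-AS/AcRA against AcRA (1 and 1, median 0.21) the genes called higher were 10 with the block (6.98%), 13 at a common median (4.75%), 39 with both (13.5%), 2 with quantile normalization (3.32%), 3 with 64 added (3.49%), 5 with the dim filter (4.91%), 0 with the compared groups only (2.76%), and 10 by the t-test unadjusted (7.66%) and 0 adjusted (0.0129%). Those called lower were 0 at a common median (4.84%), 2 and 0 by the t-test (11.1 and 0.155%), and 2 when every probe set was counted. The median was 0.45 at a common median with or without the block. In lhx1-AS/AcRA against lhx1-AS (1 lower) the block gave 2 (6.64%), the t-test 8 unadjusted (6.08%) and 0 adjusted (0.135%), and every probe set 2. In AcRA against C (none) the t-test called 1 higher and 1 lower unadjusted (6.99 and 6.42%), and every probe set gave 1 lower. The difference of responses had a median of -0.0538 with quantile normalization, against -0.14. The cause of these shifts was not tested, apart from the fewer arrays or probe sets that some settings use.

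Leaving out each array in turn gave 0 to 10 genes higher and 0 to 2 lower in lhx1-AS against C, where 0.910 to 2.84% and 1.99 to 5.24% of all probe sets were, with medians of 0.30 to 0.40, and 0 to 3 higher and 0 to 1 lower in lhx1-AS/AcRA against AcRA (1.32 to 3.21% and 3.83 to 7.93%), with medians of 0.10 to 0.31. The medians were -0.14 to 0.0703 in AcRA against C, -0.23 to -0.14 in lhx1-AS/AcRA against lhx1-AS, where 1 gene stayed lower each time, and -0.23 to -0.0523 for the difference of responses. A lone pair of arrays is then assumed to vary like the other groups. With 3 arrays per group and a median standard error of 0.21, differences of the size seen here are near the limit of what single genes can show, and dim genes such as rpl3l and eef1a2 had the widest spread.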
